A study of Capra hircus with 3 samples.

Results

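Dendritic-like barcodes of the fetal goat gonad were chosen by the RNA of 3 genes. CLEC9A encodes a lectin receptor that recognises actin filaments exposed by dead cells, IDO1 encodes an enzyme that degrades tryptophan, and CXCL9 encodes a chemokine that attracts cells bearing CXCR3. A barcode was a member if it had at least 1000 UMIs, at most 20% mitochondrial UMIs, and at least 3 UMIs in the sum of CLEC9A, IDO1 and CXCL9. It also had fewer than 5 UMIs in the sum of the complement genes C1QA, C1QB and C1QC, fewer than 2 in the sum of the T cell receptor genes CD3D, CD3E and CD3G, and fewer than 5 of AMH. The rule found 334 members among 20825 barcodes past the barcode filters. Because the rule used these genes, their levels in the members are a description and carry no test.

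The study sequenced dissociated gonads, labelled as testes of male goat (Capra hircus) fetuses, on the 10x Genomics droplet platform at 3 embryonic stages, E85, E105 and E125, the stages named by embryonic day. There was 1 library per stage, with no treatment, genotype or animal number in the labels, and its stated subject is the germ and somatic cells around mitotic quiescence. A stage therefore cannot be told apart from its library, and values between stages carry no replicate test. The 3 libraries held 45339231, 40741902 and 49692252 deposited UMIs, and 6376, 7124 and 7325 barcodes passed the filters.

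In mouse and human, conventional dendritic cells of type 1 arise from precursors that bear the receptor FLT3, and they depend on the transcription factors BATF3 and IRF8. They take up dead cells, recognise their exposed actin through CLEC9A, present the contents to T cells on MHC molecules, and bear the chemokine receptor XCR1. Macrophages, the other main phagocytes of a fetal gonad, depend on the receptor CSF1R and make complement C1q.

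The library labelled E125 went against its testis label. In libraries E85, E105 and E125, the Sertoli cell hormone gene AMH had 1400, 3820 and 31.6 UMIs per 1000000 UMIs (CPM) over all kept barcodes, and the testis transcription factor gene DMRT1 had 119, 94.6 and 9.72 CPM. The oocyte genes ZP3 and FIGLA had 1.17, 2.51 and 2110 CPM and 1.1, 0.281 and 792 CPM in the same order. The label is kept below as a name, and results are given with and without that library where it changes them. Across libraries 36 barcode sequences occurred more than once, and 2 members carried such a sequence. A doublet caller marked 3, 4 and 0 members, but it marked 1 of 7325 barcodes in E125 and so had not worked there.

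The members made up a small share of every library. They numbered 104 at E85, which was 1.631% of the kept barcodes (95% exact Clopper-Pearson interval 1.335% to 1.973%). At E105 there were 152, or 2.134% (1.811% to 2.496%), and at E125 there were 78, or 1.065% (0.8426% to 1.327%). The share was highest at E105 and lowest at E125. The intervals of these 2 stages, which cover counting error alone, did not overlap. The members were deep barcodes, with medians of 7633.5, 6226 and 7851.5 UMIs, against 4789.5, 3064.5 and 3291 in all other barcodes.

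All 3 rule genes came together in a minority of the members, and the mix of the genes differed between libraries. All 3 were found in 16 members at E85, 41 at E105 and 0 at E125. CLEC9A with CXCL9 was the most common pair, in 41, 64 and 12 members. IDO1 without either partner occurred in 23 members, all of them at E85. CXCL9 without either partner occurred in 10, 31 and 53 members, and was the largest group at E125.

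**Figure D1:**
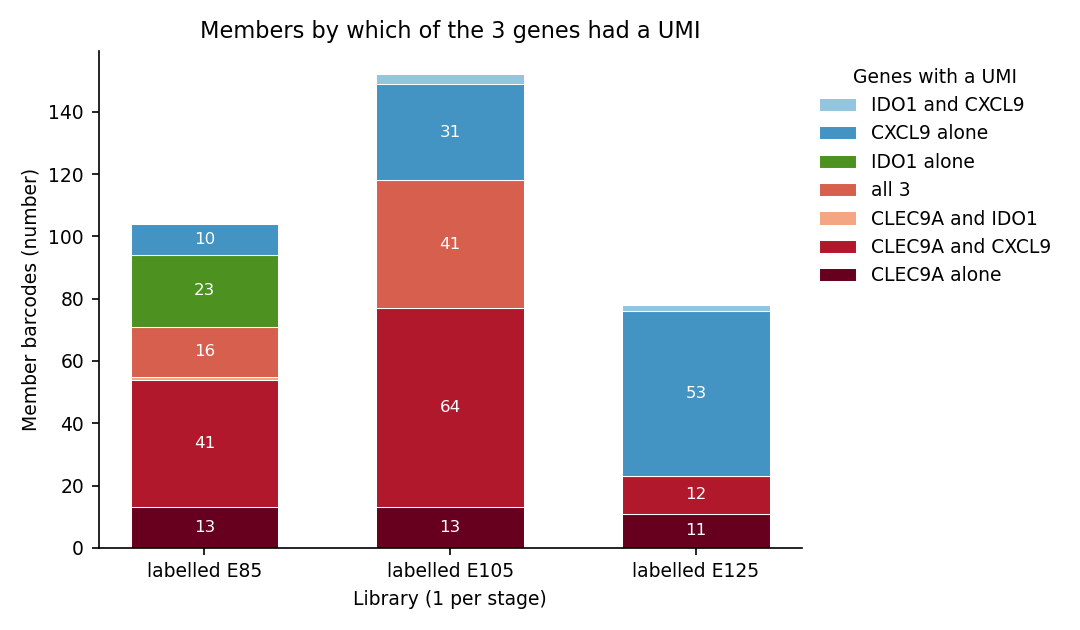
Number of members per library (vertical axis, barcodes) stacked by which of CLEC9A, IDO1 and CXCL9 had at least 1 UMI, for E85, E105 and E125. CLEC9A was present in 71 of 104, 118 of 152 and 23 of 78 members, and the members with CXCL9 alone numbered 10, 31 and 53.

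Of the 334 members, 212 had at least 1 CLEC9A UMI and are called CLEC9A-carrying. They were 71 members at E85 (68.27%, 58.42% to 77.05%), 118 at E105 (77.63%, 70.17% to 83.98%) and 23 at E125 (29.49%, 19.7% to 40.89%). As a share of all kept barcodes they were 1.114%, 1.656% and 0.314%. Their median CLEC9A level was 9, 10 and 11 UMIs per barcode, and 2, 5 and 0 of them rested on a single CLEC9A UMI. The threshold on the sum cut through a thin range. With a sum of exactly 3 there were 7, 10 and 11 members, of which 2, 2 and 1 had a CLEC9A UMI, and just outside, with a sum of 2, there were 14, 20 and 31 barcodes, of which 2, 2 and 0 had one.

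The CLEC9A-carrying members bore dendritic cell genes that the rule did not use, and the label held for them. XCR1 had 33.37 CPM at E85, 36.3 at E105 and 20.56 at E125, from 17, 28 and 5 UMIs, and it had 0 UMIs in members lacking CLEC9A and in C1Q macrophage-type barcodes of every library. FLT3 had 194.3, 195.8 and 201.5 CPM in CLEC9A-carrying members, against 2.398, 1.889 and 1.078 CPM in all other barcodes. IRF8 had 198.3, 167.3 and 143.9 CPM, against 1.956, 1.338 and 2.283 CPM in all other barcodes. BATF3 had 109.9, 232.1 and 719.7 CPM, against 4.4, 4.932 and 6.172 CPM. For FLT3, IRF8 and BATF3 the lowest CLEC9A-carrying value lay above the highest value of the others. ZBTB46, a transcription factor gene of conventional dendritic cells in mouse, was at 0, 2.593 and 0 CPM, and THBD, a surface marker of the human cells, was likewise at 0, 2.593 and 0 CPM. CCR7, the receptor that guides mature dendritic cells to lymph nodes, had 1.963, 1.297 and 0 CPM.

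The most abundant of the genes examined in CLEC9A-carrying members was CST3, which encodes the protease inhibitor cystatin C. It had 118300, 131100 and 84350 CPM in CLEC9A-carrying members, against 4111, 5297 and 4455 CPM in all other barcodes. Macrophage-type barcodes held 24340, 23490 and 40230 CPM of it. CST3 was chosen after its values were seen, and because it takes such a share of the UMIs, the comparisons were repeated without it.

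Shares of barcodes with a UMI were also compared at equal depth. XCR1 was found in 23.94%, 21.19% and 21.74% of CLEC9A-carrying members, and in 2.817%, 5.932% and 4.348% after thinning every barcode to 1000 UMIs. In all other barcodes its unthinned shares were 0.01594%, 0.02869% and 0%. FLT3 was found in 69.01%, 57.63% and 82.61% of CLEC9A-carrying members, or 12.68%, 13.56% and 26.09% after thinning. The CLEC9A-carrying members had median depths of 7651, 6792 and 8455 UMIs, and macrophage-type barcodes had 2644, 1934 and 3555 UMIs. In macrophage-type barcodes the FLT3 shares were 2.667%, 2.941% and 4.478% before thinning and 2.667%, 0% and 0% after it.

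CLEC9A and the C1q genes both belong to the rule, which limits their overlap, so their counts in the same barcodes are a description. Among CLEC9A-carrying members 0 of 71, 4 of 118 and 0 of 23 had any C1q UMI, although the rule would have admitted up to 4 C1q UMIs. Among barcodes with a C1q sum of 5 or more, 1 of 124 at E85 had a CLEC9A UMI (0.8065%). At E105 it was 0 of 151, a count that allows up to 1.99%, and at E125 0 of 71, which allows 4.23%. The C1q limit removed 45, 83 and 3 barcodes that had reached the marker sum, and none of them had a CLEC9A UMI.

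Markers of other cell types were low in the CLEC9A-carrying members. All 71 at E85, 117 of 118 at E105 and all 23 at E125 had at least 3 UMIs of pan-leukocyte markers such as PTPRC and CORO1A, whose summed level was 4444, 4858 and 5071 CPM. The summed Sertoli markers had 37.3, 50.57 and 61.69 CPM in CLEC9A-carrying members, against 1674, 2306 and 540.7 CPM in all other barcodes. Germ cell markers summed to 11.78, 6.483 and 8.225 CPM and T cell markers to 35.33, 31.12 and 16.45 CPM. The rule itself limited AMH and the CD3 genes, which were left out of these sums. Among barcodes that had reached the marker sum, the AMH limit removed 5, 10 and 0 and the CD3 limit 0 in every library. The part of these limits in the low Sertoli and T cell sums was not tested. Plasmacytoid dendritic cell markers summed to 35.33, 25.93 and 41.13 CPM, and markers of type 2 conventional dendritic cells and monocyte-derived cells to 27.48, 15.56 and 102.8 CPM. The macrophage list summed to 3060, 3319 and 3035 CPM, close to the 2784, 3962 and 3148 CPM of macrophage-type barcodes, but 5 to 7 of its 12 measured genes were at 0 in each library. Most of that sum was AIF1, a calcium-binding actin regulator of many myeloid cells, at 3001, 3203 and 2883 CPM.

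As a group the 122 members lacking CLEC9A were led by other genes, and they are called by what chose them. A few had the genes of the CLEC9A-carrying members. Among the 34 at E105 HLA-DRA was found in 4, with up to 30 UMIs, AIF1 in 8, with up to 28 UMIs, and IRF8 and FLT3 in 2 each. Among the 55 at E125 BATF3 was found in 11, but HLA-DRA in 2, AIF1 in 3, IRF8 in 1 and FLT3 in 0. At E85 23 of the 33 had IDO1 alone. These 23 held 1453 CPM of IDO1, 1366 CPM of PTPRC, the common leukocyte phosphatase gene, and 1547 CPM of CORO1A. Their level of CTSW, a protease gene of cytotoxic lymphocytes, was 1284 CPM, that of TRDC, the T cell receptor delta constant gene, was 1074 CPM, and that of IL2RB, a receptor subunit for interleukins 2 and 15, was 987.7 CPM. They also held 942.5 CPM of CRTAM, a receptor of activated lymphocytes, 588.5 CPM of the interleukin gene IL10, and 341.6 CPM of the granzyme gene GZMA. HLA-DRA, an MHC class II gene, was at 12.35 CPM and AIF1 at 28.81 CPM in them. CTSW, TRDC, IL2RB, CRTAM and IL10 were chosen after their values were seen. Of the 23, 22 had at least 3 UMIs of natural killer and cytotoxic markers and 18 had at least 3 of T cell markers. Beyond the members, 18 of 200 E85 barcodes with at least 5 CTSW UMIs had an IDO1 UMI (9.0%, 5.421% to 13.85%). At E105 it was 0 of 459, which allows up to 0.654%, and at E125 2 of 66 (3.03%).

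Summed over the members with CXCL9 and no CLEC9A, endothelial and stromal genes were higher than in CLEC9A-carrying members, but not every barcode held them. VWF was found in 3 of 10 of these members at E85, 13 of 34 at E105 and 42 of 55 at E125, and PNOC in 3, 9 and 24. NR2F2, a nuclear receptor gene of stroma and venous endothelium, was found in 7, 23 and 52. VWF, the clotting factor gene of vessel walls, had 310.4, 747.7 and 987.1 CPM in them at E85, E105 and E125, against 0, 0 and 0 CPM in CLEC9A-carrying members. ROBO4, an endothelial guidance receptor gene, had 258.7, 289.4 and 841.1 CPM, and LYVE1, a hyaluronan receptor gene of lymphatic and sinus endothelium and of some macrophages, 776, 289.4 and 753.8 CPM, both against 0 UMIs in CLEC9A-carrying members. PNOC, which encodes the prepronociceptin peptide precursor, had 931.2, 2436 and 899.8 CPM, against 0, 1.297 and 0 CPM. CA4, a carbonic anhydrase gene of capillaries, was at 0, 0 and 1231 CPM, so it appeared in E125 alone. The chemokine gene CCL19 had 206.9, 1370 and 350.9 CPM in them. ROBO4, PNOC, CA4 and CCL19 were chosen after their values were seen. The endothelial list summed to 2095, 2412 and 3619 CPM, against 108, 128.4 and 115.2 CPM in CLEC9A-carrying members, and the stromal list summed to 3906, 2605 and 2706 CPM, against 278.7, 254.1 and 357.8 CPM.

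Counted per barcode, of the members lacking CLEC9A 3, 2 and 24 had at least 3 UMIs of endothelial markers and not of leukocyte markers. Another 5, 10 and 19 had both, 19, 4 and 1 had leukocyte markers without endothelial ones, and 6, 18 and 11 had neither. Among CLEC9A-carrying members 68, 108 and 20 had leukocyte markers without endothelial ones and 3, 9 and 3 had both.

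**Figure D2:**
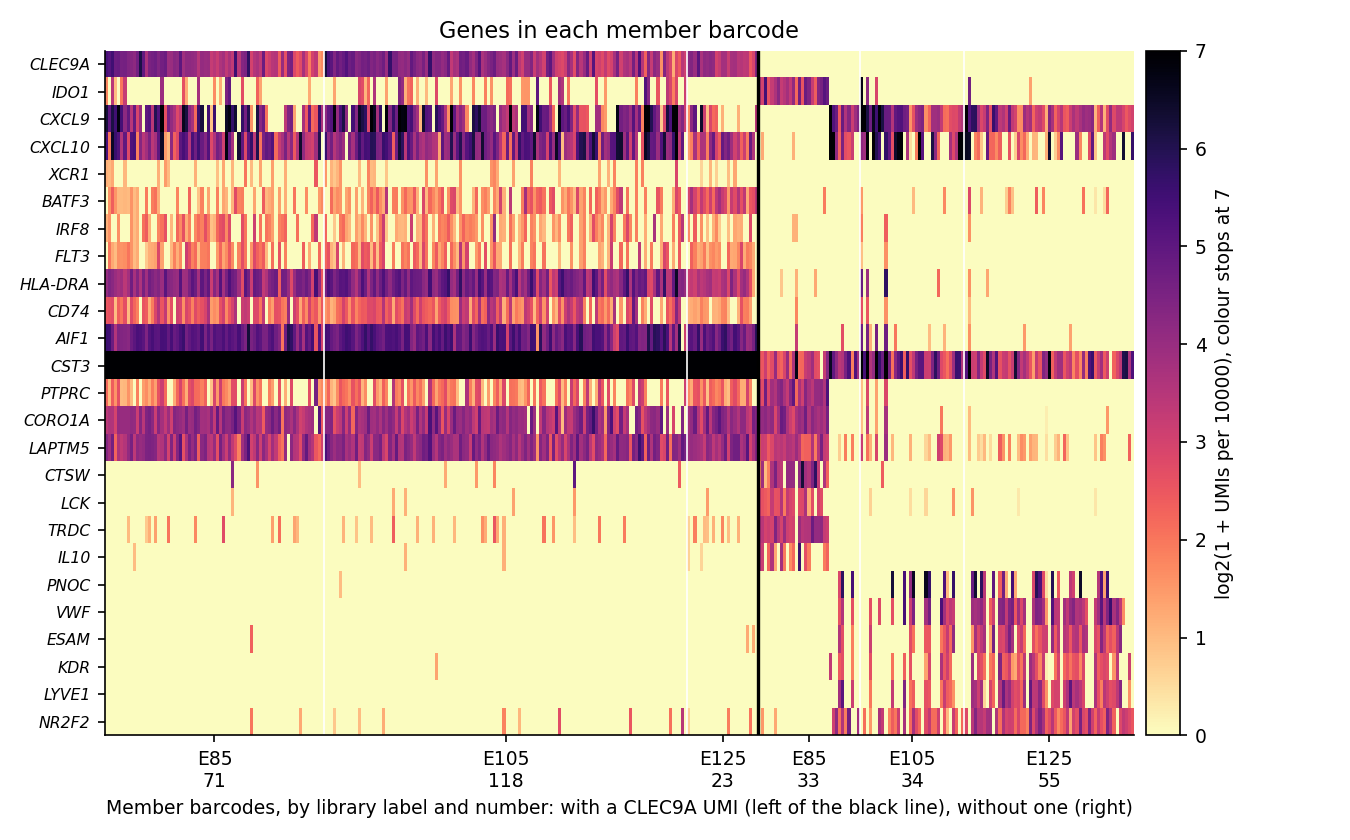
Heat map with 1 column per member, ordered by library and split by a black line into CLEC9A-carrying (left) and CLEC9A-lacking members (right), with genes down the page and colour giving log2 of 1 plus the UMIs at equal depth per barcode. CST3, AIF1 and HLA-DRA fill the CLEC9A-carrying columns, while VWF, at 0 UMIs in them, appears in CXCL9 columns on the right.

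Set against C1Q macrophage-type barcodes, the CLEC9A-carrying members had more RNA of dendritic cell transcription and growth factor genes, of actin regulators and of cell cycle genes, and less of uptake and lysosome genes. Macrophage-type barcodes had a C1q sum of at least 5 and met the other limits, with a rule gene sum under 3, and numbered 75, 68 and 67. Barcodes with that C1q sum that also reached the rule gene sum, 45, 83 and 3, were in neither class. Members and macrophage-type barcodes were thus chosen apart in the rule genes. The part of this choice in their other differences, such as those of interferon response genes, was not tested. UMIs were summed per library and class and tested with edgeR's quasi-likelihood test with library as a term, n = 3 libraries that are also 3 stages. For all 334 members, 65 of 4639 tested genes were higher (1.4%) and 184 were lower (3.97%) at a Benjamini-Hochberg adjusted p under 0.05. For the CLEC9A-carrying members, 418 of 2612 were higher (16%) and 438 were lower (16.8%). Of the 65 genes higher in all members 38 were also higher in the CLEC9A-carrying ones, which is 58.5% of the 65 and 9.09% of the 418, and of the 184 lower genes 145 were shared, or 78.8% of the 184 and 33.1% of the 438. Without E125 the counts for all members were 186 higher and 271 lower, without E105 8 and 38, and without E85 165 and 228. For CLEC9A-carrying members they ranged over 290 to 395 higher and 330 to 552 lower. Tests below concern the CLEC9A-carrying members unless all members are named, and log2 fold changes are CLEC9A-carrying over macrophage-type.

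Of 7 tested genes of the type 1 dendritic cell list, rule genes left aside, 6 were higher and 1 was lower, with a median log2 fold change of 2.86, against 0.02 over all genes tested. BATF3 had 109.9, 232.1 and 719.7 CPM in CLEC9A-carrying members, against 4.663, 52.13 and 134.2 CPM in macrophage-type barcodes (log2 fold change 2.86, SE 0.3, edgeR Benjamini-Hochberg adjusted p = 6.73e-13). IRF8 was at 198.3, 167.3 and 143.9 CPM, against 23.31, 45.61 and 7.668 CPM (3.15, SE 0.37). SLAMF8, a receptor of the SLAM family of leukocyte surface proteins, was at 131.5, 115.4 and 74.03 CPM, against 18.65, 19.55 and 3.834 CPM (3.27, SE 0.43). Within each library the CLEC9A-carrying level of these 3 genes lay above the macrophage-type level. NAAA, a lysosomal amide hydrolase gene, was higher by a log2 fold change of 1.04 (SE 0.2). CADM1, an adhesion gene of type 1 dendritic cells, was higher in the fit (0.9, SE 0.21), but at E125 it stood at 732.1 CPM in CLEC9A-carrying members and 747.6 CPM in macrophage-type barcodes. TLR3, a sensor of double-stranded RNA that marks these cells in mouse and human, was the lower one, at 19.63, 46.68 and 57.58 CPM in CLEC9A-carrying members, against 88.59, 104.3 and 134.2 CPM (-1.13, SE 0.32), a call lost without E85. XCR1 was too rare to be tested here, and over all libraries it was at least 6.88-fold higher, with macrophage-type barcodes at 0 UMIs set to a floor of 3 over the class, and at least 4.31-fold higher without E125. In the fit of all members 3 of 7 genes of the list were higher, DPP4, IRF8 and SLAMF8.

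Of 4 tested genes of the dendritic cell lineage list 3 were higher and 0 were lower. FLT3 had 194.3, 195.8 and 201.5 CPM in CLEC9A-carrying members, against 27.98, 13.03 and 11.5 CPM in macrophage-type barcodes (log2 fold change 3.76, SE 0.38, edgeR Benjamini-Hochberg adjusted p = 2.07e-13). FLT3 was nearly level across the 3 libraries in the CLEC9A-carrying members. BCL6, a transcriptional repressor gene, was higher by 1.88 (SE 0.41) and DNASE1L3, a secreted DNase gene, by 1.67 (SE 0.34). KLF4 did not pass, at a log2 fold change of -1.07 (edgeR Benjamini-Hochberg adjusted p = 0.0512), but passed without E125 at -1.72. Of the maturation list, the co-stimulator genes CD86 (0.94, SE 0.31) and CD40 (0.83, SE 0.29) were the 2 genes tested and both were higher, although CD86 lost its call without E125 and CD40 without E85 or E105.

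Genes of MHC class II presentation moved both ways. Of 8 tested, 2 were higher and 4 were lower. HLA-DRA had 1867, 2325 and 954.1 CPM in CLEC9A-carrying members, against 1515, 1479 and 1097 CPM in macrophage-type barcodes (log2 fold change 0.57, SE 0.18, edgeR Benjamini-Hochberg adjusted p = 0.0104). It was lower in CLEC9A-carrying members at E125, and its call was lost without E105. HLA-DOB, which encodes a chain of the peptide-loading modulator HLA-DO, was higher by 1.73 (SE 0.32). CD74, the invariant chain gene, had 422, 465.5 and 156.3 CPM, against 377.7, 404 and 276.1 CPM, and did not pass (edgeR Benjamini-Hochberg adjusted p = 0.487). The 4 lower genes encode lysosomal enzymes. IFI30, a thiol reductase gene, had 172.7, 140 and 119.3 CPM in CLEC9A-carrying members, against 1194, 866.6 and 904.8 CPM (-2.46, SE 0.2), and the protease genes CTSH (-2.29), LGMN (-1.92) and CTSS (-1.26) were lower as well. Of 9 tested genes of MHC class I presentation 5 were higher and 1 was lower. The 5 were proteasome genes: PSMB9, an immunoproteasome subunit gene, had 1847, 1710 and 1690 CPM in CLEC9A-carrying members, against 979.2, 749.3 and 694 CPM (1.43, SE 0.18), and PSME2 (1.42), PSMB10 (1.08), PSMB8 (1.01) and PSME1 (0.66) were also higher. The lower gene was LNPEP (-1.24), an aminopeptidase gene of endosomes. LNPEP and PSME1 lost their calls without E105.

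Among interferon response genes more were lower than higher in the CLEC9A-carrying members than in macrophage-type barcodes, and the rest did not pass. Of 11 tested genes of the interferon gamma list 1 was higher and 5 were lower. IFNGR1, a chain of the interferon gamma receptor, had 106, 142.6 and 176.8 CPM, against 666.8, 1225 and 954.7 CPM (log2 fold change -2.44, SE 0.2). GBP2, a guanylate-binding protein gene, was lower by a log2 fold change of -2.92 (SE 0.33), and IFNGR2 (-1.79) and PARP14 (-1.16) were also lower. The higher gene was WARS1, a tryptophan tRNA ligase gene (1.64, SE 0.28). CXCL10, a chemokine gene related to CXCL9, had 2626, 3157 and 1123 CPM in CLEC9A-carrying members, against 1627, 3440 and 1311 CPM (0.43, edgeR Benjamini-Hochberg adjusted p = 0.0589). Of 9 tested genes of the type I interferon list 0 were higher and 5 were lower. IFI6, an interferon-induced mitochondrial protein gene, was at 31.41, 10.37 and 41.13 CPM, against 666.8, 1043 and 1975 CPM (-5.17, SE 0.27). ISG15 (-2.28), OAS1 (-2.17), MX1 (-1.51) and IFIT3 (-1.47) were the other lower genes, and MX1 lost its call without E125.

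Genes of uptake and microbial sensing were lower. Of 9 tested engulfment genes 0 were higher and 8 were lower, with a median log2 fold change of -3.34. AXL, a receptor kinase gene for the clearance of dying cells, had 5.889, 6.483 and 4.113 CPM in CLEC9A-carrying members, against 191.2, 195.5 and 226.2 CPM (-4.7, SE 0.39). LAMP2, a lysosome membrane gene, and GRN, the progranulin gene, were lower by log2 fold changes of -3.34 and -1.67. Of 6 tested pattern recognition genes 0 were higher and 5 were lower. TLR7, a sensor of single-stranded RNA, was at 0, 0 and 4.113 CPM, against 41.97, 52.13 and 111.2 CPM. Besides TLR3 the others were TLR6 (-2.16), TLR8 (-1.25) and CARD9 (-1.55), an adaptor gene of fungal sensing, and TLR8 lost its call without E105. Of 5 tested macrophage markers 1 was higher, AIF1 (0.89), and 4 were lower. CD68, a lysosomal glycoprotein gene, had 1.963, 3.89 and 0 CPM, against 102.6, 123.8 and 76.68 CPM (-4.92, SE 0.55). MRC1, the mannose receptor gene, was lower by a log2 fold change of -2.06, and CSF1R and TREM2 had 0 UMIs.

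Genes of the cytoskeleton and of cell division were higher. Of 5 tested actin genes 4 were higher and 0 were lower. CORO1A, an actin-binding protein gene of leukocytes, had 1551, 1455 and 1686 CPM in CLEC9A-carrying members, against 685.4, 475.7 and 904.8 CPM (log2 fold change 1.51, SE 0.19). LCP1, the leukocyte plastin gene, was higher by 1.41 (SE 0.2), as were ACTB (0.95) and ARPC1B (0.57), the last of which lost its call without E105. CD44, a hyaluronan receptor gene that was tested with the integrins, had 276.8, 324.1 and 366 CPM, against 60.62, 13.03 and 130.4 CPM (2.53, SE 0.29). All 5 tested genes of G2 and mitosis were higher. TOP2A, the DNA topoisomerase gene of dividing cells, had 212, 79.09 and 394.8 CPM in CLEC9A-carrying members, against 18.65, 19.55 and 164.9 CPM (2.21, SE 0.32), and CKAP2 (2.98), CENPE (2.32), TPX2 (2.23) and CENPF (1.73) followed. Of 6 tested genes of DNA replication and the entry into S phase 5 were higher. MCM7, a helicase subunit gene, had 53, 38.9 and 185.1 CPM, against 18.65, 19.55 and 115 CPM (1.21, SE 0.34), a call lost without E85, and CLSPN (2.03), MCM5 (1.45), UHRF1 (1.4) and RRM1 (1.23) were the others, though without E125 RRM1 did not pass and CLSPN was not tested. Both classes held their highest TOP2A and MCM7 levels at E125. TOP2A was found in 15.49%, 8.475% and 26.09% of CLEC9A-carrying members, or 8.451%, 5.085% and 13.04% after thinning, against 4.0%, 4.412% and 5.97%, or 2.667%, 2.941% and 4.478% after thinning, in macrophage-type barcodes. In all other barcodes the thinned TOP2A shares were 5.309%, 4.575% and 4.153%.

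The genes farthest apart between the CLEC9A-carrying members and macrophage-type barcodes were, on the higher side, ANPEP, TUBA4A, DPP4, SLAMF9, STARD10, CYFIP2, SLAMF7, ZNF366, FLT3, PTK2, NET1 and SLAMF8. ANPEP, an aminopeptidase gene, had 117.8, 124.5 and 160.4 CPM, against 0 UMIs in macrophage-type barcodes of every library, and was at least 26.8-fold higher, or at least 14.9-fold without E125. ZNF366, also known as DC-SCRIPT and described in human dendritic cells, had 157, 176.3 and 234.4 CPM, against 23.31, 6.516 and 15.34 CPM (log2 fold change 3.87, SE 0.39). DPP4, an aminopeptidase gene, had 51.04, 49.27 and 74.03 CPM, against 0, 0 and 3.834 CPM. On the lower side stood SPP1, TREM2, FOLR2, CCL8, CLDN1, CFD, C5AR1 and CSF1R. SPP1, the osteopontin gene, had 0 UMIs in CLEC9A-carrying members, against 4304, 1460 and 49.84 CPM, and was at least 937-fold lower. E85 held most of these UMIs, and without it SPP1 was at least 193-fold lower. TREM2, a lipid-sensing receptor gene of macrophages and microglia, had 0 UMIs, against 158.5, 514.8 and 440.9 CPM (at least 184-fold lower, or 78.6-fold without E105). CSF1R had 0 UMIs, against 102.6, 162.9 and 103.5 CPM (at least 59.8-fold lower, or 25.9-fold without E105). CFD, the complement factor D gene, had 13.74, 3.89 and 4.113 CPM, against 5651, 5988 and 1679 CPM. Each of these 20 genes kept its direction and its call without E85, E105 or E125 and without CST3. In the fit of all members the same rule named PNOC, ESAM and LYVE1, which lay at 0 to 8.225 CPM in CLEC9A-carrying members, among the higher genes.

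**Figure D3:**
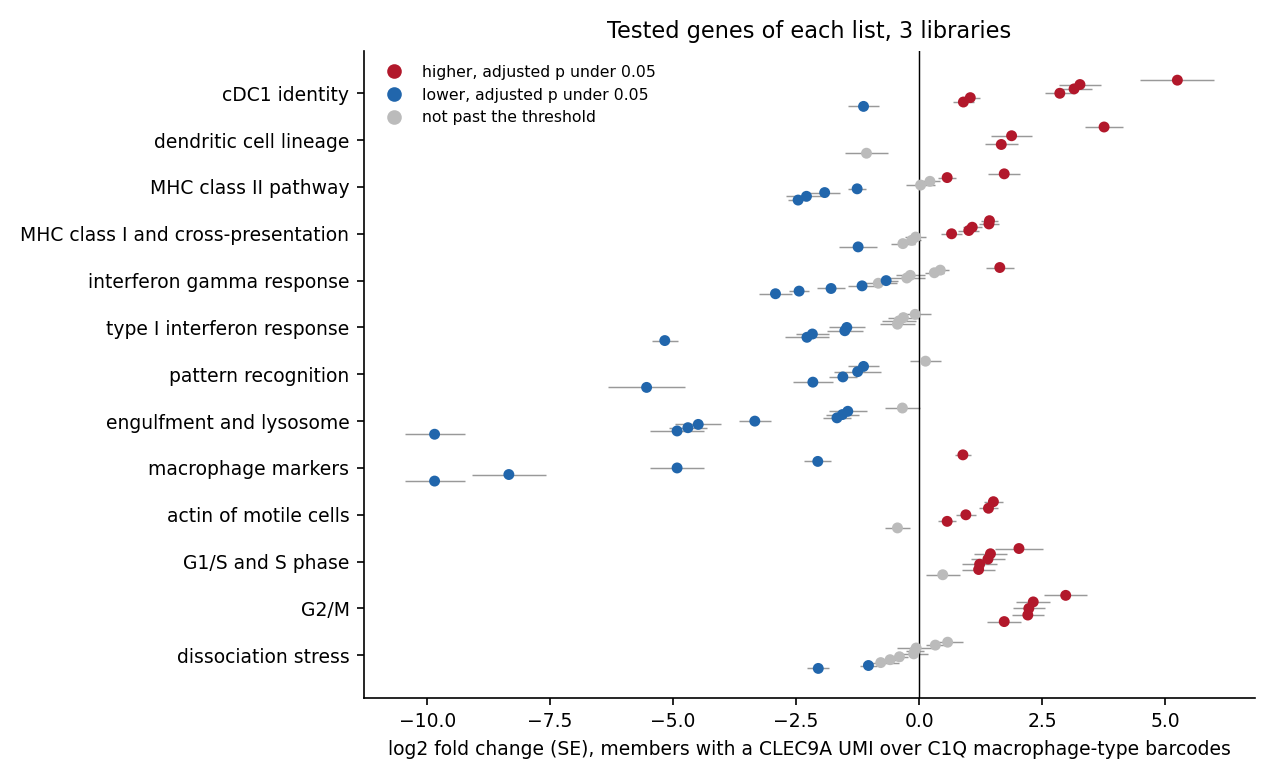
Log2 fold changes of list genes in CLEC9A-carrying members over macrophage-type barcodes from edgeR (horizontal axis), 1 row of points per gene list, with bars for the SE. Type 1 dendritic cell, actin and cell cycle genes lie mostly right of 0, and engulfment, pattern recognition and type I interferon genes left of it.

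Set against all other kept barcodes, the CLEC9A-carrying members stood out by leukocyte, dendritic cell and presentation genes and by low levels of Sertoli, germ cell and stromal markers. Among 13249 genes tested for all members, 707 were higher (5.34%) and 873 were lower (6.59%) at an edgeR Benjamini-Hochberg adjusted p under 0.05. For the CLEC9A-carrying members 1382 of 12881 were higher (10.7%) and 2672 were lower (20.7%). Of the 707, 664 were shared, which is 93.9% of them and 48.0% of the 1382. Without E125 the counts for all members were 1070 higher and 1401 lower, and for CLEC9A-carrying members 1569 and 2417. Without E85 the CLEC9A-carrying counts were 787 and 1380, and without E105 686 and 1370.

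Of 13 tested type 1 dendritic cell genes 10 were higher and 0 were lower in CLEC9A-carrying members, with a median log2 fold change of 3.87, against -0.48 over all genes. XCR1 was higher by 9.68 (SE 0.77), with 5 UMIs in CLEC9A-carrying members at E125. ITGAE, an integrin gene, was at 7.852, 15.56 and 4.113 CPM and higher by 3.99 (SE 0.78). SNX22, THBD and CD226 did not pass. Of 10 lineage genes 7 were higher, among them FLT3 (7.12, SE 0.3) and SPI1, which encodes the myeloid transcription factor PU.1 (5.37, SE 0.96). ITGAE, RAB7B, TLR3 and SPI1 lost their calls without E105, CADM1 without E125, BCL11A without E85, and RELB without E85 or E105. Of 14 MHC class II genes 10 were higher and 0 were lower, although RFX5 and CTSH lost their calls without E85 or E105 and CIITA without E105. HLA-DRA was higher by 6.76 (SE 0.2), at 21.74, 35.41 and 7.673 CPM in all other barcodes, and CD74 by 6.35. HLA-DRA was found in 100%, 100% and 95.65% of the CLEC9A-carrying members and in 3.555%, 3.399% and 1.145% of all other barcodes. After thinning the HLA-DRA shares were 81.69%, 88.98% and 60.87%, against 2.152%, 2.238% and 0.6899%.

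Chemokine and interferon genes moved unevenly against the other barcodes. Of 13 interferon gamma response genes 10 were higher, 6 of them also without E85 and 6 without E105, and 0 were lower. CXCL10 was higher by 3.53 on the log2 scale. Of 16 type I interferon response genes 7 were higher, 4 of them also without E85, and ISG15 (-1.48), IFIT1 (-1.44) and IFI6 (-2.93) were lower. Of 13 genes of dissociation stress 11 were higher, 7 of them also without E105, among them JUN (1.4) and FOS (3.4), and HSP90AA1 (-0.42) was lower. ISG15 lost its call without E85, IFIT1 without E85 or E105 and HSP90AA1 without E105. The part of stress in these differences was not tested. Of 9 chemokine and receptor genes 5 were higher, 3 of them also without E85 or without E105, and 2 were lower. CCR2, a receptor gene of monocytes and their descendants, was higher by 5.46, with too few UMIs for a test without E85 or E105, and CCL21, a chemokine gene of lymphatic endothelium and stroma, was lower by a log2 fold change of -4.89. Of 7 genes of tryptophan and kynurenine handling KYNU, the kynureninase gene (5.33, SE 0.5), WARS1 (2.92, SE 0.25) and IL4I1, an amino acid oxidase gene (0.94, a call lost without E85 or E105), were higher, and SLC3A2, an amino acid transporter chain gene (-1.67), was lower. IDO1 had 99, 178 and 0 UMIs in CLEC9A-carrying members.

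The genes farthest above the other barcodes were XCR1, SLAMF9, SLAMF8, GPR82, DHRS9, NLRP1, ISG20, NAPSA, AIF1, FLT3, CD86 and IRF8. NAPSA, an aspartic protease gene of the lysosome, had 571.2, 848 and 435.9 CPM in CLEC9A-carrying members, against 3.981, 8.525 and 3.276 CPM (7.25, SE 0.25). DHRS9, a retinol dehydrogenase gene, had 137.4, 241.2 and 156.3 CPM, against 0.8381, 1.102 and 0.7821 CPM (7.9, SE 0.32). On the lower side stood ESM1, RAB17, GPRC5B, F2, FHOD3, VWF, BCAM and ROBO4, all with 0 UMIs in CLEC9A-carrying members. VWF was at least 27.5-fold lower and ESM1, a proteoglycan gene of endothelial tip cells, at least 27.4-fold lower, or 14.9-fold and 11-fold without E105. F2, the prothrombin gene, stood at 2.724, 2.361 and 292.3 CPM in all other barcodes, and its call was lost without E125. All 8 tested Sertoli genes were lower, as were 6 of 9 germ cell genes, 10 of 11 stromal genes and 7 of 11 endothelial genes, while the endothelial genes PECAM1 (1.01) and PLVAP (1.39) were higher, calls lost without E85 or E105. Of the Sertoli genes 6 remained lower without E85, where DMRT1 and INHBB lost their calls. The AMH limit of the rule applied to the members and not to the other barcodes, and its part in the Sertoli result was not tested. Of the germ cell genes 4 remained lower without E85 or without E105, where PIWIL4 and TDRD9 lost theirs. The stromal gene MGP changed sign without E125.

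The CLEC9A-carrying members changed in part between libraries. The stages have 1 library each, so counts below are of genes at least 2 times apart whose exact interval, which covers counting error alone, also left out 1, among genes with at least 20 UMIs over the pair. At E105 against E85, 356 of 4368 genes were higher (8.15%) and 229 were lower (5.24%) in all members. In CLEC9A-carrying members 102 of 3343 were higher (3.05%) and 86 were lower (2.57%). In the library labelled E125 against E85, 1381 of 4702 were higher (29.4%) and 409 were lower (8.7%) in all members, whose make-up differed most there, and 252 of 2387 were higher (10.6%) and 148 were lower (6.2%) in CLEC9A-carrying members. The median log2 ratio of all genes was 0.35 in all members and 0.1 in CLEC9A-carrying members at E125 against E85. Scaling by TMM moved the median in all members to 0.09, with 1158 genes higher (24.6%) and 593 lower (12.6%).

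Among identity genes BATF3 differed most between libraries. FLT3 stood at a ratio of 1.01 at E105 over E85 (0.777 to 1.31) and 1.04 at E125 over E85 (0.721 to 1.47), and IRF8 at 0.844 and 0.726, with intervals that included 1. BATF3 had 109.9, 232.1 and 719.7 CPM at E85, E105 and E125, a ratio of 2.11 at E105 over E85 (1.56 to 2.9) and of 6.55 at E125 over E85 (4.82 to 9.01). Its ratio in all other barcodes was 1.12 at E105 and 1.4 at E125. In macrophage-type barcodes it was 11.2 and 28.8, but their E85 level rested on very few UMIs. CADM1 stood at 732.1 CPM at E125 and 343.5 CPM at E85, a ratio of 2.13 (1.72 to 2.64), against 0.607 in all other barcodes and 4.45 in macrophage-type barcodes. XCR1 was at a ratio of 0.616 at E125 over E85, with 5 and 17 UMIs and an interval of 0.178 to 1.74, so a change was not detectable at this depth. DNASE1L3 was at 57.58 CPM at E125 and 206.1 CPM at E85, a ratio of 0.279, against 0.158 in all other barcodes.

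CXCL10 and summed MHC class II levels were highest at E105 and lowest at E125. The MHC class II list summed to 3806, 4525 and 1937 CPM in CLEC9A-carrying members. CXCL9, a rule gene whose UMIs chose the members, had 2921, 4167 and 1143 CPM. Of 6 chemokine and receptor genes measured 1 was higher and 1 was lower past the fold at E105 over E85, and of 3 measured at E125 over E85 also 1 each way. CXCL10 had 2626, 3157 and 1123 CPM, a ratio of 0.427 at E125 over E85 (0.374 to 0.487), while in all other barcodes that ratio was 3.09 and in macrophage-type barcodes 0.806. HLA-DRA had 1867, 2325 and 954.1 CPM, and its ratio of 0.511 at E125 over E85 (0.441 to 0.591) fell short of the fold limit. CD74 stood at 156.3 CPM at E125 and 422 CPM at E85, a ratio of 0.37 (0.255 to 0.525). The same ratio of CD74 was 0.295 in all other barcodes and 0.731 in macrophage-type barcodes. Of 8 MHC class II genes measured, 3 were lower past the fold at E125 and 0 were higher, against 0 of 9 either way at E105. IDO1, also a rule gene and so a description only, had 0 UMIs at E125, against 99 at E85. Those at E85 lay in 16 members with all 3 rule genes and 1 with CLEC9A and IDO1. An IDO1 UMI in 0 of 23 CLEC9A-carrying members allows a share with a UMI of up to 13.0%, and 2 E125 members lacking CLEC9A held IDO1 with CXCL9.

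Cell cycle genes were lowest at E105. TOP2A stood at 79.09 CPM at E105 and 212 CPM at E85, a ratio of 0.373 (0.268 to 0.515), against 1.14 in all other barcodes and 1.05 in macrophage-type barcodes. The 61 and 108 TOP2A UMIs came from a minority of the CLEC9A-carrying members, by the shares given above. The interval counts UMIs as independent, so it leaves out the spread between barcodes. CENPF, a kinetochore gene, had a ratio of 0.395 (0.304 to 0.51), against 0.923 in all other barcodes and 0.599 in macrophage-type barcodes. The macrophage-type ratios of TOP2A and CENPF rested on few UMIs. Of 13 genes of G2 and mitosis, 1 was higher and 4 were lower past the fold at E105 over E85, with a median log2 ratio of -0.86, against -0.01 over all genes measured. At E125 over E85, 5 of 8 genes of S phase were higher and 0 were lower (median log2 ratio 1.26, against 0.1 over all genes). MCM7 had 185.1 CPM at E125 and 53 CPM at E85, a ratio of 3.49 (2.12 to 5.85). It was 1.62 in all other barcodes and 6.17 in macrophage-type barcodes, whose E85 level rested on few UMIs. The E125 values rest on 23 barcodes.

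Several of the widest differences between libraries were as wide in the other barcodes. JUN, an immediate early transcription factor gene, had a ratio of 3.91 at E105 over E85 in CLEC9A-carrying members, 3.52 in all other barcodes and 4.73 in macrophage-type barcodes, and at E125 over E85 the ratios were 4.41, 5.9 and 3.45. ITM2B, a membrane protein gene, had ratios of 5.55, 5.48 and 5.55 at E105 over E85. TAF10, a subunit gene of the general transcription factor TFIID, stood at 300.2 CPM at E125 and 9.814 CPM at E85 in CLEC9A-carrying members, a ratio of 30.6, against 45.3 in all other barcodes. GADD45B, a stress response gene, had a ratio of 0.0806 at E125 over E85 in CLEC9A-carrying members (0.00951 to 0.306), from 2 and 52 UMIs. It was lower in macrophage-type barcodes too, at 0.396, and went the other way in all other barcodes, at 2.38. METRNL, a secreted factor gene, had a ratio of 15.0 at E125 over E85 in CLEC9A-carrying members and 9.23 in all other barcodes. HSP70.1, a heat shock gene, was lower at both later stages, with ratios of 0.256 and 0.0676, against 0.631 and 0.241 in all other barcodes, while in macrophage-type barcodes they were 2.87 and 0.173. Stress genes differed between libraries and not in the same way in every class, and their part in the differences between stages was not tested.

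**Figure D4:**
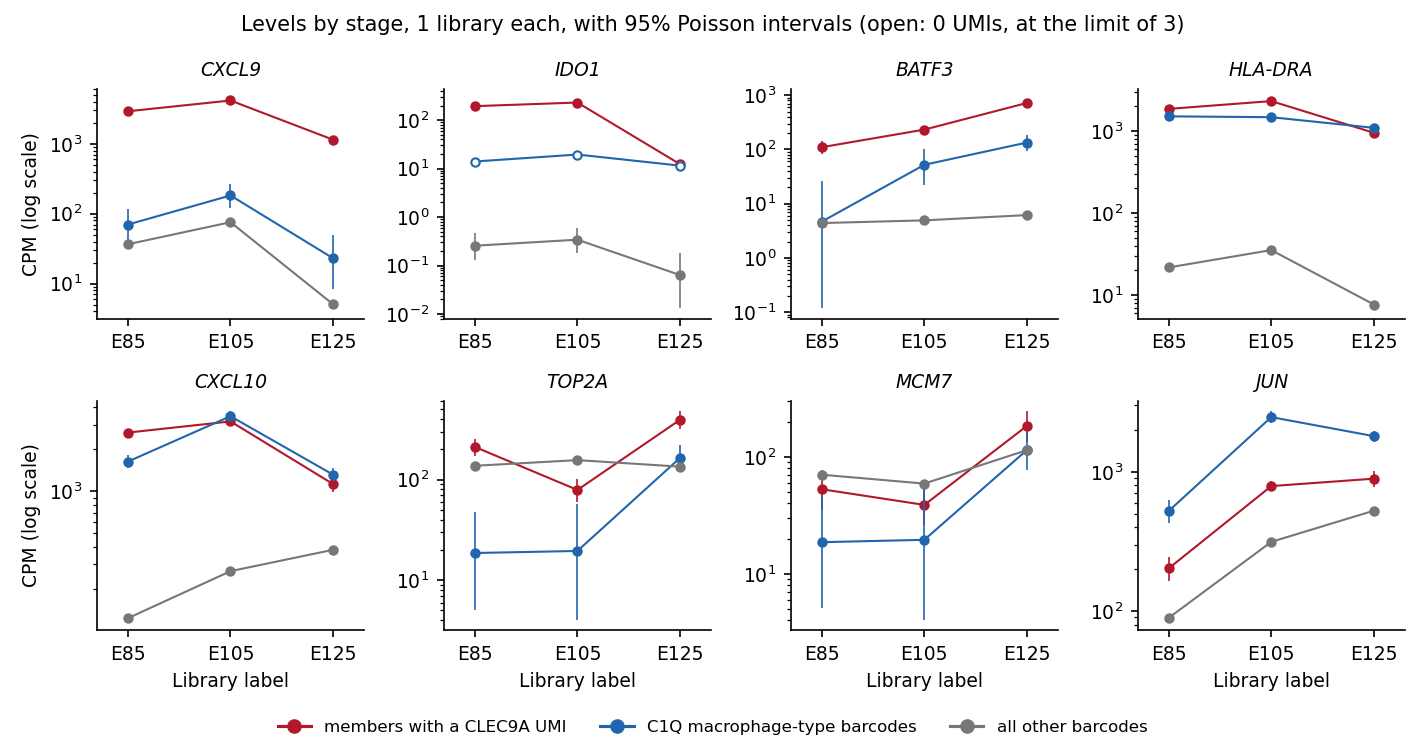
CPM on a log axis at E85, E105 and E125 for 8 genes in CLEC9A-carrying members, macrophage-type barcodes and all other barcodes, with 1 library per stage. In CLEC9A-carrying members BATF3 was lowest at E85 and highest at E125 (109.9, 232.1 and 719.7 CPM), HLA-DRA and the rule gene CXCL9 were highest at E105, TOP2A was lowest at E105, and JUN was higher at E105 and E125 than at E85 in all 3 classes.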

How the data were processed

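Per the file headers and the labels, each deposited matrix holds raw counts of UMIs for every feature in every barcode. The submitters' processing notes give Cell Ranger 3.1 and the file headers give 6.0.0, and the genome build behind them is not given in the sources used here. Of 27271 features 16616 had a symbol, and these held 60.4% of the UMIs.

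The members and gene lists were chosen with earlier results of these data known, so patterns in them are no independent evidence. Barcodes needed at least 1000 UMIs and a share of at most 20% from the 13 mitochondrial genes. Depth per library was 40741902 to 49692252 UMIs. Doublets were called with Scrublet in scanpy 1.11.5 (expected rate 6%) and kept, and leaving them out was an alternative. Counts were summed per library and class and given as CPM. Class tests used edgeR 4.0.16 in R 4.3.3 (quasi-likelihood, library term, TMM, filterByExpr, Benjamini-Hochberg adjusted p under 0.05), a procedure tested on simulated data, with DESeq2 1.42.0 as an alternative. Repeats without CST3, in members lacking CLEC9A, and in CLEC9A-carrying members without each library or between stages were chosen after seeing the data. A SE is the log2 fold change divided by the square root of the F statistic. The labels do not say that libraries came from separate animals, so p-values do not measure a spread between animals. They rest on 3 libraries and on a dispersion that edgeR pools across genes. A small p is therefore not a measure of 1 gene's own spread between the libraries. Shares have exact Clopper-Pearson intervals, and ratios between stages exact binomial intervals at 95%; both cover counting error only. A level of 0 was given a floor of 3 UMIs over the class. Thinning drew 1000 UMIs per barcode. Members were also to be set against CD3 T-type barcodes, but these numbered 9, 24 and 1, and with at least 10 barcodes per class asked for, no model could be fitted.

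For the class comparisons the genes named were those past the threshold and changed the same way in every library, the 12 with the largest positive and the 8 with the largest negative fold change, leaving out the 10 rule genes and ribosomal, mitochondrial and haemoglobin genes. Between stages, 6 genes each way with at least 100 CPM in 1 library were ranked by their interval bounds. Up to 6 genes of each list were eligible besides, and 1 of them is not reported here.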

Additional observations from a re-analysis of the deposited data

Results flagged for a closer look

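In 2 of 11 marker lists the members lacking CLEC9A stood on opposite sides of the CLEC9A-carrying members in different libraries. The summed natural killer and cytotoxic markers of CLEC9A-lacking members over CLEC9A-carrying members had a ratio of 49.5 at E85 and 0.0954 at E105, and at E125 both sums were 0. The levels were 1750 and 35.33 CPM at E85, and 4.824 and 50.57 CPM at E105 (ratio interval 0.00236 to 0.564). At E105 CTSW, a gene of that list, was found in 1 of 34 CLEC9A-lacking members, with 1 UMI. At E85 1 CLEC9A-carrying barcode held 16 CTSW UMIs. The CLEC9A-carrying level at E85 and the CLEC9A-lacking level at E105 thus rest on few UMIs and barcodes. The summed pan-leukocyte markers had ratios of 1.41 at E85, 0.177 at E105 and 0.0599 at E125. The 23 IDO1-alone members, all of which were in the E85 library, held 2029 CPM of the cytotoxic list and 7206 CPM of the pan-leukocyte list, and their part in these ratios was not tested. The lists were picked out because the exact interval of the ratio lay above 1 in a library and below 1 in another. With 1 library per stage the difference between stages was not tested. A stricter limit that asked for 2-fold either way, tried before, picked out 0 of 11 lists, and the limit was loosened after that was seen.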

How the results depend on the processing

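No paired analysis was possible because every stage had a single library, all of them numbered 1, so the stages shared fewer than 2 replicate numbers. Requiring a CLEC9A UMI gave member shares of 1.114%, 1.656% and 0.314% at E85, E105 and E125, and choosing members after thinning 0.8626%, 1.39% and 0.2184%. At least 2000 UMIs gave 2.534% at E105, and a marker sum of 2 gave 1.488% at E125. Against macrophage-type barcodes, genes higher and lower in all members numbered 65 and 184. They numbered 554 and 344 with no filter beyond 1 UMI, 20 and 114 without the library term, 418 and 438 with a CLEC9A UMI, 420 and 438 with that and no CST3, and 33 and 113 in members lacking CLEC9A. With 1 library left out they ranged over 8 to 186 and 38 to 271, the lowest without E105. Against all other barcodes the 707 and 873 genes became 200 and 95 without the library term, 1382 and 2672 with a CLEC9A UMI, 1381 and 2672 with that and no CST3, and 151 and 315 in members lacking CLEC9A. Leaving out 1 library gave 516 to 1070 and 748 to 1401 in all members, and 686 to 1569 and 1370 to 2417 in CLEC9A-carrying ones. Against macrophage-type barcodes CLEC9A-carrying counts ranged over 290 to 395 and 330 to 552. For E105 over E85 the 356 and 229 genes became 171 and 107 at 50 or more UMIs, 102 and 86 with a CLEC9A UMI, and 108 and 86 with no CST3. For E125 over E85 the 1381 and 409 became 799 and 234, 252 and 148, and 225 and 166. DESeq2 called 64 and 192 genes against macrophage-type barcodes, and 829 and 855 against all others, where 1798 genes had no adjusted p. The cause of these shifts was not tested. Of the values of single genes over the alternatives none changed sign among those recomputed one by one: 402 kept their call and 25 lost it in all members, and 263 kept it, 5 lost it and 1 gained it in CLEC9A-carrying ones. Of 82 list genes called in CLEC9A-carrying members against macrophage-type barcodes, 72, 73 and 74 remained called without E85, E105 and E125. Of 179 called against all other barcodes 126, 124 and 165 did, and MGP, a matrix protein gene, changed sign without E125. Depth limits the E125 values most, which rest on 23 CLEC9A-carrying members.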

Other observations

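Lists not described above moved with the classes as follows. Of 10 tested stress genes 0 were higher and 2 were lower in CLEC9A-carrying members than in macrophage-type barcodes by edgeR with Benjamini-Hochberg adjustment. The 2 were JUN (log2 fold change -1.03, SE 0.18) and DUSP1, a phosphatase gene of the early stress response (-2.05, SE 0.22). CXCR4, the receptor gene for CXCL12, had 41.22, 45.38 and 94.59 CPM in CLEC9A-carrying members at E85, E105 and E125, against 484.9, 358.4 and 176.4 CPM in macrophage-type barcodes (-2.27, SE 0.3). The 2 levels of CXCR4 were closest at E125. B cell markers summed to 115.8, 59.64 and 61.69 CPM and erythroid markers to 0, 1.297 and 4.113 CPM in CLEC9A-carrying members.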
